A study of Homo sapiens with 20 samples.

Results

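The miR-17/92 cluster is a set of 6 microRNA (miRNA) hairpins that lie within 1 transcript, the long non-coding RNA MIR17HG. Its 10 listed mature members were followed through 20 small RNA libraries of 2 human cell lines, the colon cancer line HCT116 and the embryonic kidney line HEK293E. The members were chosen by name, namely miR-17-5p, miR-17-3p, miR-18a-5p, miR-18a-3p, miR-19a-3p, miR-20a-5p, miR-19b-3p, miR-19b-1-5p, miR-92a-3p and miR-92a-1-5p. All 10 were found among the 2588 mature miRNAs counted. The study compared DROSHA knockout (KO) cells rescued with DROSHA-p140, a shorter form of DROSHA, or with the full-length protein, with 3 libraries for each form in each line. Its title names the proline-rich disordered domain of DROSHA and miRNAs that lie in introns. Wild-type (WT) HCT116 cells were kept for 72 hr in medium with 0.1% or with 9.1% fetal bovine serum (FBS), with 3 libraries each. A single library came from HCT116 KO cells given GFP in place of DROSHA, and a single one from untreated HCT116 WT cells. All 12 rescued libraries therefore share the loss of the cells' own DROSHA. Whether a knockout was 1 clone, how the rescue proteins were expressed and how much of each the cells held is not stated in the labels.

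DROSHA, with its partner DGCR8, releases miRNA hairpins from long primary transcripts inside the nucleus, and DICER then trims each hairpin to a duplex of which mostly 1 arm, the guide, is kept. MIR17HG is switched on by the transcription factor MYC, and its miRNAs are known for promoting cell cycle entry and survival in many tumours. The 6 guides fall into 4 families by seed, the bases that pair with target messages. The miR-17 family (miR-17-5p and miR-20a-5p) represses cell cycle inhibitors such as p21. In mouse colon cells, miR-18a-5p and the miR-19 family were linked to loss of the angiogenesis inhibitors CTGF and thrombospondin-1. The miR-19 family holds miR-19a-3p and miR-19b-3p, and miR-92a-3p is known for repressing the pro-death protein BIM.

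The mature sequences of the 6 guides show how closely the members resemble each other and which pairs a read must tell apart. They are RefSeq sequences (GRCh38.p14), 5′ to 3′, with the seed, bases 2 to 8, in capitals.
miR-17-5p: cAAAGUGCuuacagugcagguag
miR-20a-5p: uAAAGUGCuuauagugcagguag
miR-18a-5p: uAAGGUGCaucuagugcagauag
miR-19a-3p: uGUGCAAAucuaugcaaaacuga
miR-19b-3p: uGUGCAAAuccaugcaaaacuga
miR-92a-3p: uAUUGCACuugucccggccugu
Positions are counted from 1 at the 5′ end, with the base of the first named miRNA written first. miR-19a-3p and miR-19b-3p, both of 23 bases, differ by 1 substitution, U11C, outside the seed. miR-17-5p and miR-20a-5p differ by C1U and C12U. The seed AAAGUGC is held by 8 of 2370 human mature miRNAs in that table and GUGCAAA by 2, the 2 miR-19 guides. Near-identical copies lie in a second cluster on chromosome X, where miR-106a-5p differs from miR-17-5p by C1A and miR-18b-5p from miR-18a-5p by A20U.

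The hairpins mir-18a, mir-19a and mir-19b-1 are shown because the results below turn on the first 2 and because the third yields nearly the same guide as mir-19a. Their arms are in capitals (RefSeq, GRCh38.p14, plus strand of chromosome 13).
mir-18a: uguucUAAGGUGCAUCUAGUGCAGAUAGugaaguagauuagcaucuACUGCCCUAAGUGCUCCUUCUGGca
mir-19a: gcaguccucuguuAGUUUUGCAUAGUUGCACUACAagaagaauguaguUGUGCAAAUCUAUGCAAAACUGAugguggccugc
mir-19b-1: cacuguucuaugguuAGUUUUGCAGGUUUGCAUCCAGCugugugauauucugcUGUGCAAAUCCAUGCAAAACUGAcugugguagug
The mir-18a hairpin lies at chr13:91350751-91350821, mir-19a at chr13:91350891-91350972 and mir-19b-1 at chr13:91351192-91351278. The computed minimum free energy (RNAfold) of mir-18a was -21.1 kcal/mol over 71 bases, the weakest of the 6. mir-19a had -38.7 kcal/mol over 82 bases, mir-19b-1 -38.5, mir-92a-1 -35.5, mir-17 -33.8 and mir-20a -31.0 kcal/mol. Of 1560 human hairpins folded the same way, 91.9% were more stable per base than mir-18a and 43.8% more stable per base than mir-19a.

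The whole cluster spans 787 bases, chr13:91350605-91351391 (hg38), in the order mir-17, mir-18a, mir-19a, mir-20a, mir-19b-1 and mir-92a-1. Between 35 and 92 bases separate neighbouring hairpins, with 69 bases before mir-19a and 92 after it. In GENCODE 29, MIR17HG has 3 transcripts. All 6 hairpins lie in an intron of ENST00000400282.6 and in an exon of ENST00000582141.5 and ENST00000581816.1. Every hairpin of the cluster thus has the same annotation in each transcript.

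**Figure D1:**
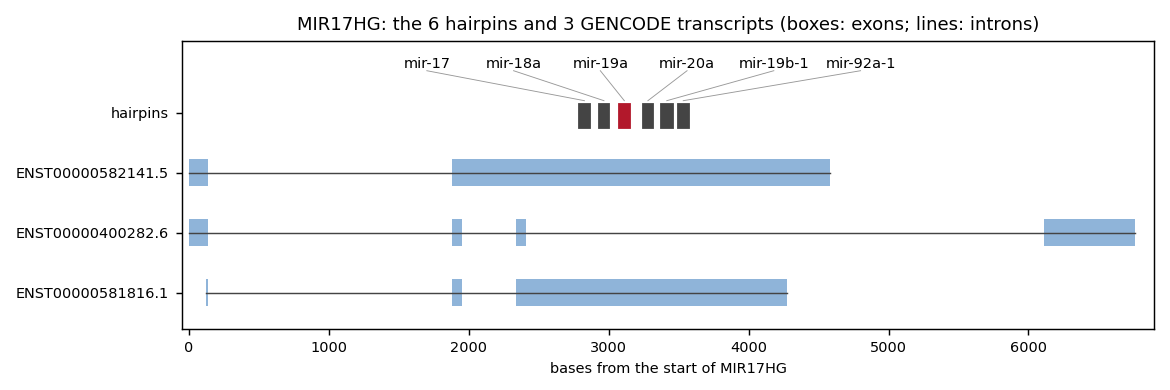
The 6 hairpins of the cluster (upper row, mir-19a in red) above the 3 GENCODE transcripts of MIR17HG, in bases from the start of the gene, with exons as boxes and introns as lines. All 6 hairpins fall in the last intron of ENST00000400282.6 and in the last exon of the other 2 transcripts.

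The libraries held 38288 reads (KO with GFP) to 2822317 reads (0.1% FBS, replicate 3) of mature miRNAs. In HCT116 KO cells there were 305603 to 327011 reads with p140 and 764015 to 873717 with full-length DROSHA, and in HEK293E KO cells 135084 to 246008 with p140 and 224262 to 335803 with full-length DROSHA. In HCT116 WT cells there were 1767223 to 2822317 reads in 0.1% FBS, 1745625 to 1927440 in 9.1% FBS and 856658 in the untreated library. A list of 14 miRNAs made without DROSHA, such as miR-320a and the mirtron miR-877-5p, took 71.8% of the reads of KO cells with GFP and 1.29% of untreated WT, as the labels imply. The list took 7.22 to 21.6% with p140 and 2.81 to 5.12% with full-length DROSHA in HCT116, and 15.6 to 20.2% with p140 and 10.6 to 12.4% with full-length DROSHA in HEK293E. Replicates numbered 3 stood apart in the HCT116 groups, with a chi-square per degree of freedom of 36.4 to 88.9 in pairs with replicate 3, against 3.57 to 8.29 for replicates 1 and 2. Epithelial and intestinal markers (5 miRNAs, such as miR-200c-3p) summed to 30574 to 38467 CPM (reads scaled to a common library total of 1000000) in the 7 HCT116 WT libraries. They summed to 261 to 487 CPM in the 6 rescued HCT116 libraries, where miR-215-5p was at 0 in all 3 with p140, and to 4101 CPM in KO cells with GFP, where miR-192-5p and miR-215-5p were at 0. The rescued HCT116 cells thus lacked most of the epithelial signal of their parent line, and the part of this and of the next list in the results below was not tested. Blood markers (6 miRNAs, miR-223-3p at 0 in all 12 rescued libraries) summed to 9.77 to 48.9 CPM with p140 and 37.8 to 43.2 CPM with full-length DROSHA in HCT116, to 111 to 281 CPM with p140 and 455 to 953 CPM with full-length DROSHA in HEK293E, and to 187 to 211 CPM in 0.1% FBS and 55.6 to 76.8 CPM in 9.1% FBS.

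The share of all reads that came from the cluster was larger in each HEK293E library than in any HCT116 library. The 10 members together made up 2.60, 2.75 and 4.36% of the reads with p140 in HCT116 and 3.93, 3.72 and 5.08% with full-length DROSHA. The 2 groups overlapped, and replicate 3 was the highest in each. In HEK293E the members made up 11.8, 10.7 and 11.3% with p140 and 13.6, 11.6 and 12.5% with full-length DROSHA, again with overlap. In HCT116 WT cells they made up 4.65, 4.99 and 5.47% in 0.1% FBS and 7.81, 7.47 and 8.25% in 9.1% FBS, with no overlap. They made up 0.548% in KO cells with GFP (210 reads) and 3.92% in untreated WT cells. Reads count molecules in a bulk culture, so that fewer cells making an miRNA and less of it per cell cannot be told apart.

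The order of the members was much the same in every group, apart from miR-19a-3p. miR-92a-3p had the highest mean level in all 8 groups, with a mean of 11999 ± 2076 CPM with p140 and 12830 ± 878 CPM with full-length DROSHA in HCT116 KO cells (SD, n = 3 each). Its range stood clear of the member with the next mean in all 6 replicated groups, though in 0.1% FBS it overlapped with that of miR-20a-5p. Below it came miR-19b-3p, miR-17-5p and miR-20a-5p, whose ranges overlapped with each other in all 6 groups, so that their order is not resolved. Next came miR-19a-3p and then miR-18a-5p, with ranges apart for full-length DROSHA in both lines and in both serum groups. With p140 this order was turned round in HCT116, where miR-18a-5p lay above miR-19a-3p in 3 of 3 libraries with overlapping ranges, and in HEK293E the ranges of the pair overlapped. The 4 listed passenger arms had the lowest means in the 6 replicated groups, led by miR-17-3p with group means of 360 to 1139 CPM.

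**Figure D2:**
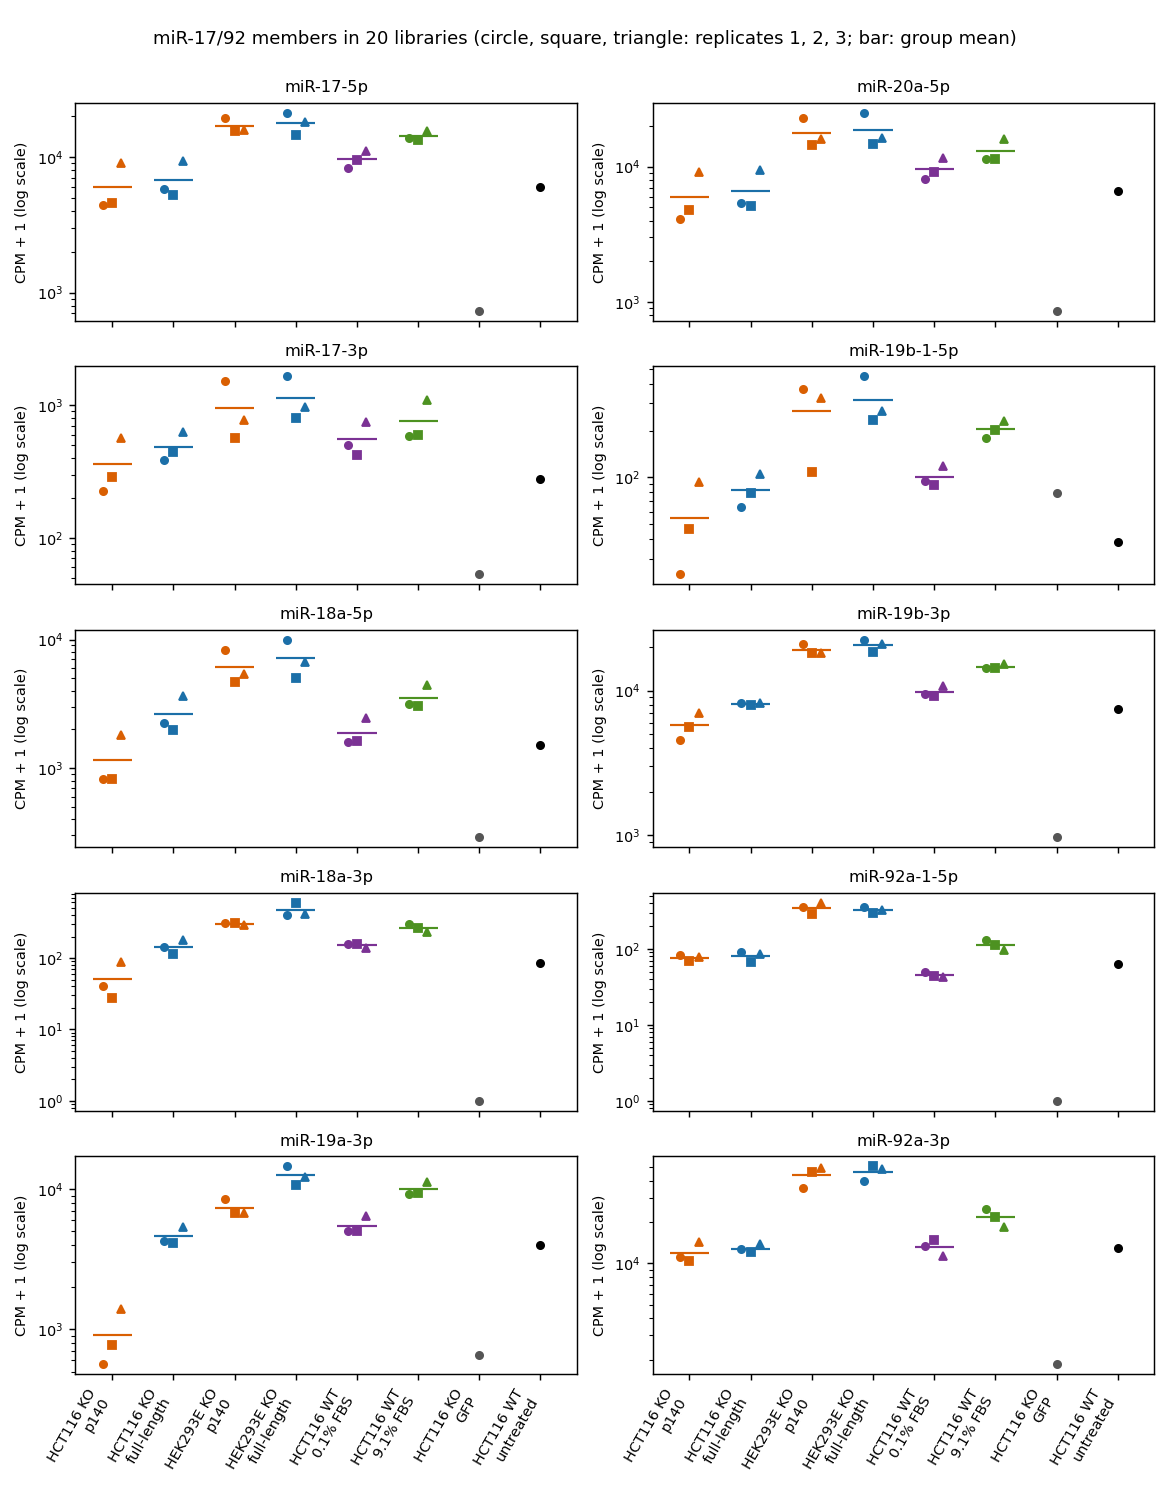
Level of each member in CPM + 1 (log scale) in the 20 libraries, in 8 groups, with circle, square and triangle for replicates 1, 2 and 3 and a bar for the mean of 3. The 3 HCT116 p140 libraries lie between 563 and 1404 CPM for miR-19a-3p, below all full-length libraries (4162 to 5406 CPM), while the groups overlap for miR-92a-3p.

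In HCT116 KO cells, miR-19a-3p, both miR-18a arms and miR-19b-3p were lower with p140 than with full-length DROSHA, and the miR-17 family and miR-92a-3p did not pass the unpaired test. By edgeR's quasi-likelihood test with Benjamini-Hochberg adjustment over 446 miRNAs, 4 of 10 members were lower and the other 6 did not pass. Over all miRNAs tested, 31.2% were lower and 28.5% higher (59.6% in either direction), so the members' count of lower calls is near the background in this unpaired fit. The summed epithelial markers were also lower in this comparison, at 261 to 352 CPM with p140 and 448 to 487 CPM with full-length DROSHA, and the endothelial miR-126 arms higher, at 2038 to 3003 CPM with p140 and 1230 to 1834 CPM with full-length DROSHA. The median log2 fold change was -0.57 over the members and -0.11 over all tested miRNAs. The groups did not overlap for these 4 members, against 64.8% of all miRNAs tested.

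miR-19a-3p changed most. It had 563, 769 and 1404 CPM with p140, against 4270, 4162 and 5406 CPM with full-length DROSHA. Every p140 library lay well below every full-length library, and replicate 3 was the highest of each group. The log2 fold change was -2.45 ± 0.30 (SE; 95% interval -3.15 to -1.76; edgeR adjusted p = 0.000737), rank 37 of 446 from the most lowered upward. Its other arm, miR-19a-5p, which is not among the listed members, had 1, 0 and 1 reads with p140 against 5, 11 and 18 reads with full-length DROSHA and was too low for the test.

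The miR-18a arms came next. miR-18a-5p had 814, 821 and 1801 CPM with p140, against 2233, 1965 and 3636 CPM with full-length DROSHA, with no overlap although p140 replicate 3 came close to full-length replicate 2. Its log2 fold change was -1.31 ± 0.35 (SE; edgeR adjusted p = 0.0142), and without p140 replicate 2 the call was lost at -1.12 (edgeR adjusted p = 0.0544). Its passenger arm miR-18a-3p had 39.1, 26.2 and 85.6 CPM with p140, against 141, 113 and 177 CPM with full-length DROSHA, and its log2 fold change was -1.61 ± 0.41 (SE; edgeR adjusted p = 0.0118). Both arms of this hairpin were thus lower by similar amounts.

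miR-19b-3p, which shares its seed with miR-19a-3p, fell far less. It had 4588, 5641 and 7036 CPM with p140, against 8239, 7969 and 8164 CPM with full-length DROSHA. The p140 libraries spread widely below a tight full-length group. The log2 fold change was -0.59 ± 0.14 (SE; edgeR adjusted p = 0.0103). Reads of this guide can also come from mir-19b-2 on chromosome X, whose deposited count was nearly equal, and the same holds for miR-92a-3p and mir-92a-2. The other arms of these X hairpins were near absent: miR-92a-2-5p had 0 CPM in all 12 rescued libraries, and miR-19b-2-5p averaged 0 CPM with p140 and 0.873 CPM with full-length DROSHA in HCT116. Other arms of the X cluster were present, led by miR-106a-5p with group means of 322 to 819 CPM in rescued cells, and miR-363-3p had 0 CPM there. How many reads of either guide came from chromosome X was not tested.

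The other 6 members did not pass the unpaired test, with log2 fold changes of -0.72 to -0.17. miR-17-5p had 4412, 4562 and 8984 CPM with p140, against 5861, 5249 and 9336 CPM with full-length DROSHA (log2 -0.31 ± 0.31, SE). miR-20a-5p had 4096, 4764 and 9140 CPM with p140, against 5386, 5117 and 9438 CPM with full-length DROSHA (log2 -0.27 ± 0.33, SE). In both, replicate 3 of either group stood far above the other 2 libraries, and the groups overlapped. miR-92a-3p had 11139, 10491 and 14366 CPM with p140, against 12657, 12051 and 13781 CPM with full-length DROSHA, and the 95% interval of its log2 fold change, -0.49 to 0.10, leaves room for a moderate fall but not for one like that of miR-19a-3p.

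Same-numbered HCT116 libraries deviated together, but this was clear for replicates numbered 3 only (r = 0.84). For replicates 1 and 2 another number correlated nearly as well (0.68 against 0.76 and 0.51 against 0.52). In a fit with the replicate number as a block, 9 of 10 members were lower in HCT116, against 37.9% of all miRNAs tested. The blocked log2 fold change was -2.51 ± 0.14 for miR-19a-3p, -1.33 ± 0.10 for miR-18a-5p, -0.60 ± 0.09 for miR-19b-3p, -0.31 ± 0.08 for miR-17-5p, -0.27 ± 0.08 for miR-20a-5p and -0.19 ± 0.07 for miR-92a-3p (SE). Only miR-92a-1-5p did not pass, at -0.17 (edgeR adjusted p = 0.553). With replicates numbered 3 left out, 9 members were also lower (36.2% of all miRNAs) and miR-19a-3p was at -2.77 ± 0.14 (SE), and leaving out p140 replicate 3 alone gave 9 as well (35.1% of all).

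In HEK293E KO cells, miR-19a-3p was the member that fell with p140, and by less. By the same test over 416 miRNAs, 1 of 10 members was lower and the other 9 did not pass, against 21.2% lower and 5.29% higher (26.4% in either direction) of all miRNAs tested. miR-19a-3p had 8454, 6752 and 6764 CPM with p140, against 14541, 10758 and 12305 CPM with full-length DROSHA, with no overlap. The log2 fold change was -0.70 ± 0.17 (SE; 95% interval -1.07 to -0.33; edgeR adjusted p = 0.0101), rank 106 of 416 from the most lowered upward. The first quartile of the log2 fold changes of all miRNAs tested was also -0.70, so a fall of this size was common in this line. Without p140 replicate 3 the value of miR-19a-3p was -0.64 (edgeR adjusted p = 0.0519), and without both replicates numbered 3 it was -0.66 (edgeR adjusted p = 0.157), neither of which passed.

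miR-18a-3p had 311, 313 and 284 CPM with p140, against 397, 588 and 414 CPM with full-length DROSHA, in groups that did not overlap, as held for 42.3% of all miRNAs tested. Its log2 fold change of -0.54 ± 0.22 (SE; edgeR adjusted p = 0.113) passed only with the replicate block (-0.53, edgeR adjusted p = 0.0102), where 2 members were lower, against 27.2% of all miRNAs. Marker lists moved in HEK293E as well: miR-218-5p and miR-10b-5p, high in this line, summed to 42329 to 50324 CPM with p140 and 72010 to 87297 CPM with full-length DROSHA, and the epithelial markers to 427 to 466 CPM with p140 and 499 to 605 CPM with full-length DROSHA. Their part in the result was not tested. The guides miR-17-5p, miR-20a-5p, miR-19b-3p and miR-92a-3p had log2 fold changes of -0.04 to -0.01 with standard errors of 0.14 to 0.23, and their signs turned under other scalings. Their levels were 16923 ± 2249 CPM with p140 and 17966 ± 3330 CPM with full-length DROSHA for miR-17-5p, and 43576 ± 7181 CPM with p140 and 46420 ± 5699 CPM with full-length DROSHA for miR-92a-3p (SD, n = 3 each). miR-18a-5p, at 8313, 4689 and 5378 CPM with p140 and 9970, 4993 and 6641 CPM with full-length DROSHA, did not pass (log2 -0.17 ± 0.28, SE).

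Whether the effect of p140 differed between HEK293E and HCT116 was tested with an interaction term in a fit of the 12 rescued libraries and 515 miRNAs. miR-19a-3p was the 1 member of 10 that passed, against 3.3% of all miRNAs tested (2.14% upward and 1.17% downward). Its log2 fold change was higher by 1.68 ± 0.34 in HEK293E than in HCT116 (SE; 95% interval 0.96 to 2.41; edgeR adjusted p = 0.0120). The adjusted p rose to 0.0599 without full-length HCT116 replicate 3 and to 0.0506 without HEK293E p140 replicate 2, with values of 1.55 and 1.68. miR-18a-5p (1.06 ± 0.46), miR-18a-3p (1.00 ± 0.44) and miR-19b-3p (0.50 ± 0.21) had an unadjusted p under 0.05, as did 20.4% of all miRNAs tested, but did not pass the adjustment (edgeR adjusted p of 0.201 to 0.215).

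**Figure D3:**
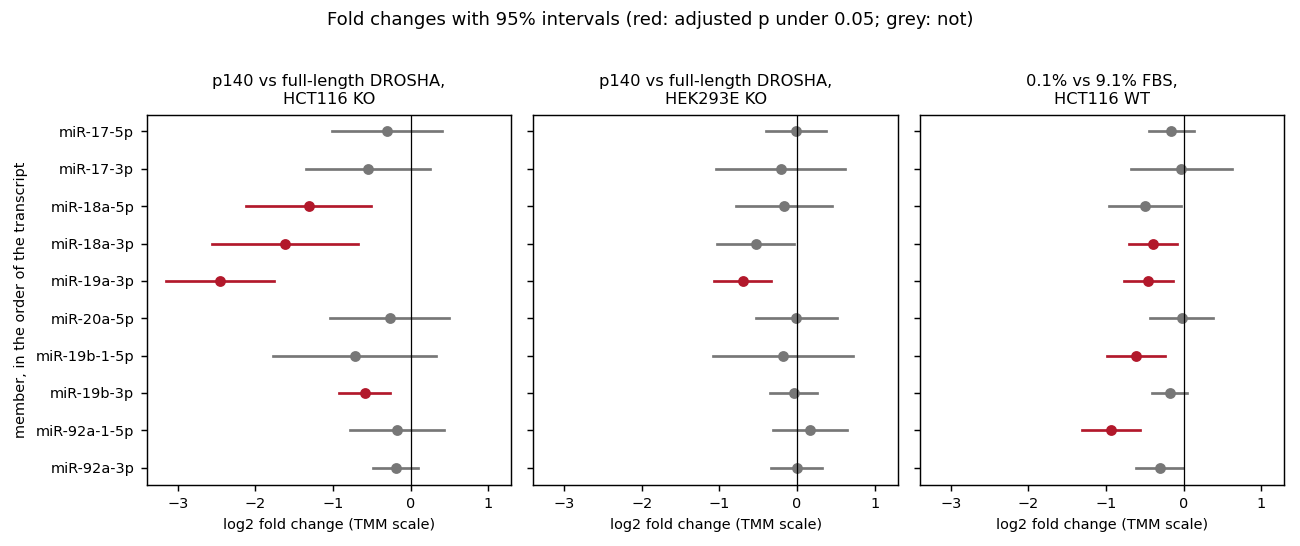
Log2 fold change (x axis, TMM scale) of the 10 members with 95% intervals for p140 against full-length DROSHA in HCT116 KO and in HEK293E KO cells, and for 0.1% against 9.1% FBS in HCT116 WT cells (red: edgeR adjusted p under 0.05; grey: not). miR-19a-3p is the only member in red in all 3 panels, at -2.45, -0.70 and -0.45.

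Shares within the cluster do not depend on how libraries are scaled, and they set the hairpins of 1 transcript against each other, so that a lower share of one raises the others. Reads given here to mir-19b-1 and mir-92a-1 can also come from their copies on chromosome X, and so can part of the cluster's total. The reads of mir-19a (miR-19a-3p) made up 2.17, 2.80 and 3.22% of the cluster's reads with p140 in HCT116, against 10.9, 11.2 and 10.7% with full-length DROSHA. In HEK293E they made up 7.16, 6.34 and 5.97% with p140, against 10.7, 9.25 and 9.84% with full-length DROSHA. The full-length values of both lines lay near those of KO cells with GFP (11.9%) and untreated WT cells (10.1%), while all 6 p140 libraries lay below every other library of the series.

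Within 1 line an exact permutation test of 3 against 3 libraries cannot go below p = 0.1, and mir-19a reached this limit in each line. When the labels were permuted within each line over the 12 rescued libraries, the mean difference of -5.80 percentage points for mir-19a had an exact two-sided p of 0.005, the smallest that 400 arrangements can give. It was 0.03 after Benjamini-Hochberg adjustment over the 6 hairpins. None of the other 5 passed (adjusted permutation p of 0.21 to 0.775). These permutations ignored the pairing of same-numbered libraries. Swaps within pairs, which allow fewer arrangements and so a larger smallest p, were not tested. mir-18a made up 3.28, 3.08 and 4.33% with p140 and 6.04, 5.59 and 7.51% with full-length DROSHA in HCT116, and 4.70 to 7.31% with p140 and 4.80 to 7.63% with full-length DROSHA in HEK293E. It was lower in every same-numbered pair of both lines, as was mir-19a, but the HEK293E groups of mir-18a overlapped. The share of mir-20a was higher in every same-numbered pair of both lines, with overlapping groups in each line.

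The share of mir-92a-1 moved the other way in HCT116, to 43.2, 38.4 and 33.2% with p140, against 32.4, 32.6 and 27.3% with full-length DROSHA, also at the limit of p = 0.1 (exact permutation test). In HEK293E it was 30.4, 43.3 and 43.9% with p140 and 29.7, 43.9 and 39.1% with full-length DROSHA, with overlap. Between same-numbered libraries, the log2 ratio of the mir-19a share with p140 to that with full-length DROSHA averaged -0.61 ± 0.09 in HEK293E and -2.02 ± 0.30 in HCT116 (SD, n = 3 pairs each). These 2 sets of 3 pairs did not overlap, and their difference of 1.40 was at the smallest p that the exact permutation test allows, 0.1. For mir-18a the same ratios averaged -0.09 ± 0.08 in HEK293E and -0.84 ± 0.04 in HCT116 (SD, n = 3 pairs each).

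**Figure D4:**
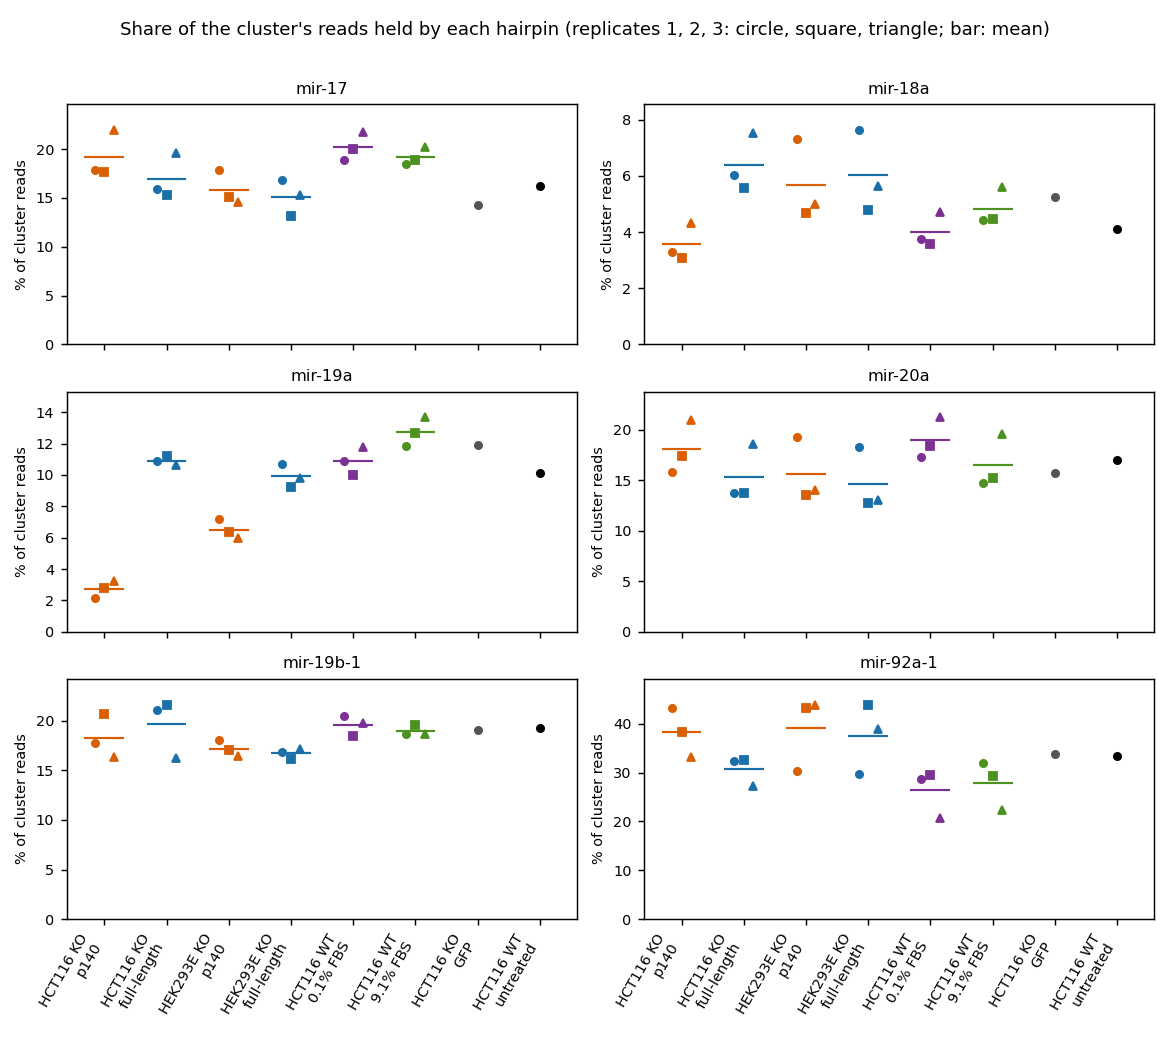
Reads of each hairpin's listed arms as percent of the reads of all 10 members (y axis) in the 20 libraries, by group, with circle, square and triangle for replicates 1, 2 and 3 and a bar for the mean of 3. The p140 libraries hold 2.17 to 3.22% (HCT116) and 5.97 to 7.16% (HEK293E) of mir-19a, below the 9.25 to 13.7% of all other libraries. Reads shown as mir-19b-1 and mir-92a-1 can also come from copies on chromosome X.

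Set against its neighbours in the same library, miR-19a-3p had 0.138, 0.161 and 0.154 reads per read of miR-20a-5p, the guide of the next hairpin, with p140 in HCT116, against 0.793, 0.813 and 0.573 with full-length DROSHA. In HEK293E it had 0.372, 0.471 and 0.425 with p140, against 0.585, 0.728 and 0.757 with full-length DROSHA. Set against miR-19b-3p, from which it differs by U11C, it had 0.123, 0.136 and 0.200 reads per read with p140 in HCT116, against 0.518, 0.522 and 0.662 with full-length DROSHA. In HEK293E it had 0.404, 0.373 and 0.369 with p140, against 0.647, 0.579 and 0.581 with full-length DROSHA. With either partner the p140 and full-length libraries of a line did not overlap.

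The 2 arms of a hairpin were also set against each other. In HCT116, miR-17-3p made up 4.85, 5.94 and 5.95% of the 2 miR-17 arms with p140, against 6.22, 7.76 and 6.28% with full-length DROSHA, and miR-18a-3p 4.58, 3.09 and 4.54% of the miR-18a arms, against 5.95, 5.45 and 4.63%. Neither pair of groups overlapped, both stood at the smallest possible p of 0.1 (exact permutation test), and over both lines neither passed (adjusted permutation p = 0.39). For miR-19b-1-5p and miR-92a-1-5p the groups overlapped in both lines.

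In HCT116 WT cells, the cluster was lower in 0.1% than in 9.1% FBS, by an amount that depends on the scale. By edgeR's test over 577 miRNAs on the TMM scale, 4 of 10 members were lower in 0.1% FBS and the other 6 did not pass, against 20.3% lower and 25.5% higher (45.8% in either direction) of all miRNAs tested. When library totals alone set the scale, the median of all miRNAs tested was -0.44, against -0.03 on the TMM scale (log2), and 8 of 10 members were lower, against 43% of all miRNAs. On that scale calls over all tested miRNAs were 248 lower and 73 higher, against 117 lower and 147 higher on the TMM scale. With the replicate block 8 of 10 were lower, against 30.3% of all miRNAs, and likewise with replicates numbered 3 left out, against 27.6%.

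The 2 passenger arms at the end of the cluster fell most. miR-92a-1-5p had 48.7, 43.3 and 41.8 CPM in 0.1% FBS, against 132, 112 and 95.5 CPM in 9.1% FBS, with no overlap, as held for 54.9% of all miRNAs tested. Its log2 fold change was -0.94 ± 0.16 on the TMM scale (SE; edgeR adjusted p = 0.00212) and -1.34 ± 0.16 on library totals. miR-19b-1-5p had 93.9, 88.7 and 117 CPM in 0.1% FBS, against 177, 202 and 230 CPM in 9.1% FBS (log2 -0.61 ± 0.17 on the TMM scale, SE; edgeR adjusted p = 0.0165). These passenger arms also took a smaller share of their pair: miR-92a-1-5p made up 0.364, 0.293 and 0.367% of the miR-92a arms in 0.1% FBS, against 0.529, 0.511 and 0.520% in 9.1% FBS, and miR-19b-1-5p 0.984, 0.961 and 1.08% of the miR-19b arms, against 1.22, 1.38 and 1.49%. Both were at the smallest p of 0.1 that the exact permutation test allows.

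miR-19a-3p was the guide that passed on the TMM scale in the serum experiment. It had 5053, 4997 and 6454 CPM in 0.1% FBS, against 9249, 9455 and 11279 CPM in 9.1% FBS, with no overlap. Its log2 fold change was -0.45 ± 0.14 on the TMM scale (SE; edgeR adjusted p = 0.0264) and -0.86 ± 0.13 on library totals. miR-18a-3p was also lower (-0.39 ± 0.13, SE; edgeR adjusted p = 0.0399). The count of lower members fell to 1, miR-92a-1-5p, without replicate 2 of 9.1% FBS, without replicate 1 of 0.1% FBS or without replicate 2 of 0.1% FBS. Over all miRNAs tested, 80 of 586, 98 of 606 and 90 of 599 were lower in these fits. miR-92a-3p had 13311, 14731 and 11350 CPM in 0.1% FBS, against 24792, 21750 and 18270 CPM in 9.1% FBS, and passed on library totals (log2 -0.72 ± 0.14, SE; edgeR adjusted p = 0.00325) but not on the TMM scale (-0.31 ± 0.14, SE; edgeR adjusted p = 0.0941). The smallest differences were those of the miR-17 family member miR-20a-5p, at 9597 ± 1827 CPM in 0.1% FBS and 12976 ± 2707 CPM in 9.1% FBS (SD, n = 3 each; TMM scale log2 -0.03), and of miR-17-3p (TMM scale log2 -0.03). The share of mir-19a in the cluster was 10.9, 10.0 and 11.8% in 0.1% FBS, against 11.9, 12.7 and 13.7% in 9.1% FBS, which did not overlap but lay at the smallest p of 0.1 (exact permutation test; adjusted 0.48 over 6 hairpins).

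The KO library with GFP held few reads of the cluster. miR-17-5p had 28 reads of 38288 in KO cells with GFP and 5195 of 856658 in untreated WT cells, 8.29-fold lower in CPM (95% counting interval 5.73 to 12.5). miR-92a-3p had 71 and 11165 reads (7.03-fold, 5.57 to 9.01), miR-19a-3p 25 and 3396 reads (6.07-fold, 4.11 to 9.40), miR-20a-5p 33 and 5702, miR-19b-3p 37 and 6430, and miR-18a-5p 11 and 1303. With at least 100 reads in either library, 7 members could be read, and all 7 were more than 2-fold lower in CPM in KO cells with GFP, as were 89.2% of the 194 miRNAs that met this minimum. All 7 met it through the far deeper WT library alone, so the minimum itself favours members that are high there. miR-17-3p was counted on 2 reads against 239 (5.34-fold, 1.46 to 44.4), an interval that includes falls under 2-fold. The median log2 ratio was -2.81 for the members and -2.46 for those 194 miRNAs. Scaled to the DROSHA-independent list instead, the ratios were far larger, with 461-fold for miR-17-5p and medians of -8.61 for the members and -8.26 for all. miR-18a-3p and miR-92a-1-5p had 0 reads in KO cells with GFP, against 73 and 54 in untreated WT cells. With 3 reads in place of 0, the folds were 1.09 and 0.80. The exact counting intervals of the folds had lower limits of 0.862 and 0.632, so a fall cannot be stated for either. miR-19b-1-5p, at 3 and 32 reads, could not be resolved (WT over KO 0.477, 0.149 to 2.43). With 1 library each there is no test, and the intervals cover counting error only.

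Levels in rescued HCT116 cells were also set against untreated WT cells. Taken as percent of the untreated WT library, full-length HCT116 libraries held 92.5 to 106% of miR-92a-3p, 105 to 136% of miR-19a-3p, 106 to 110% of miR-19b-3p, 86.6 to 154% of miR-17-5p, 76.9 to 142% of miR-20a-5p and 129 to 239% of miR-18a-5p. With p140 they held 14.2 to 35.4% of miR-19a-3p, 53.5 to 118% of miR-18a-5p, 61.1 to 93.8% of miR-19b-3p, 72.8 to 148% of miR-17-5p, 61.5 to 137% of miR-20a-5p and 80.5 to 110% of miR-92a-3p. The untreated level is that of 1 library, so its own spread is unknown.

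Against the 3 WT libraries kept in 9.1% FBS, the same full-length libraries were lower: 7 of 10 members were lower by edgeR's test over 566 miRNAs, against 29.7% lower and 28.8% higher (58.5% in either direction) of all tested. miR-19a-3p had 4612 ± 689 CPM with full-length DROSHA and 9995 ± 1117 CPM in WT cells (SD, n = 3 each; log2 -1.12 ± 0.14, SE; edgeR adjusted p = 8.82e-05), and miR-17-5p 6816 ± 2204 CPM with full-length DROSHA and 14306 ± 1145 CPM in WT cells (log2 -1.08 ± 0.18, SE; edgeR adjusted p = 0.000656). miR-19b-1-5p (-1.31), miR-20a-5p (-0.98), miR-18a-3p (-0.88), miR-19b-3p (-0.85) and miR-92a-3p (-0.75) were lower too. miR-18a-5p (-0.45), miR-17-3p (-0.65) and miR-92a-1-5p (-0.49) did not pass in this fit. All 10 members were lower with the replicate block (35.7% of all miRNAs), with replicates numbered 3 or full-length replicate 3 alone left out, with no filter and when scaled to the DROSHA-independent list. Over all miRNAs tested, 223 of 592 were lower without replicates numbered 3 and 212 of 662 without full-length replicate 3. With no filter 277 of 1967 were lower. On the scale of the list 442 of 566 were lower, with a median log2 fold change of -2.03 over all. Of the 10 members, 8 had groups that did not overlap, against 65.4% of all tested. The untreated WT library, from the same line, held 3964 CPM of miR-19a-3p and 6064 CPM of miR-17-5p, below all 3 libraries in 9.1% FBS. The summed epithelial markers were at 448 to 487 CPM with full-length DROSHA and 30574 to 33609 CPM in WT cells in 9.1% FBS. Genotype, rescue and experiment cannot be told apart in this comparison.

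Between the lines with the same full-length DROSHA, whether HEK293E held more of the cluster than HCT116 depended on the scale. miR-92a-3p had 39967, 50764 and 48528 CPM in HEK293E, against 12657, 12051 and 13781 CPM in HCT116. On library totals all 10 members were higher in HEK293E, against 60.9% of all miRNAs, with log2 fold changes of 1.23 (miR-17-3p) to 2.04 (miR-92a-1-5p). On that scale the median over all 517 miRNAs tested was itself 1.11. On the TMM scale, where that median is 0.05, 4 of 10 members were higher, against 33.7% higher and 30.4% lower (64% in either direction) of all tested. These were miR-92a-1-5p (0.98), miR-19b-1-5p (0.88), miR-92a-3p (0.79) and miR-18a-3p (0.64). Scaled to the DROSHA-independent list, the signs of 6 members turned and 0 members passed. The number of higher members ran from 2, without full-length HCT116 replicate 1 or replicate 2, to 8, without full-length HCT116 replicate 3 or HEK293E replicate 2. Over all miRNAs tested, 146 of 495 and 146 of 494 were higher in the first 2 of these fits, and 169 of 495 and 197 of 636 in the others. The groups did not overlap on the TMM scale for 5 members, against 70.8% of all tested.

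Related miRNAs outside the cluster offer a comparison, in part with the same seeds. The miR-106b/25 cluster lies in an intron of MCM7 and holds 6 listed arms, all tested. Of these, miR-106b-5p and miR-93-5p have the seed of miR-17-5p, and miR-25-3p has that of miR-92a-3p. The other arms have other seeds. With p140 in HCT116, 1 was lower (miR-25-3p, log2 -0.54, edgeR adjusted p = 0.0197) and miR-93-5p was at 0.32 (edgeR adjusted p = 0.0611). In HEK293E the 6 arms had log2 fold changes of -0.15 to 0.21 and did not pass, and in 0.1% FBS 1 was higher (miR-25-3p, 0.36, edgeR adjusted p = 0.0152). The paralogous cluster of miR-106a on chromosome X had 2 of 10 arms with enough reads. miR-106a-5p, at 322 ± 106 CPM with p140 and 337 ± 59.2 CPM with full-length DROSHA in HCT116 (SD, n = 3 each), and miR-18b-5p did not pass in HCT116, HEK293E or serum. Neither cluster holds a second miR-19a.

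Over the 8 group means on a log2(CPM + 1) scale, the miRNAs whose pattern was most like that of the summed members were miR-25-3p (Pearson r = 0.987), miR-106b-5p (0.985), miR-25-5p (0.981), miR-92b-3p (0.979) and miR-15b-5p (0.978), of 255 with a mean of at least 100 CPM. Over the 7 groups without KO cells with GFP they were miR-15b-5p (0.978), miR-25-5p (0.954), miR-15a-5p (0.948), miR-25-3p (0.947) and miR-15b-3p (0.947). These r describe few groups that share libraries and depth. Among the 6 guides themselves, miR-19a-3p was the least like the sum of the other members, with r = 0.870 over 8 groups and 0.779 over 7, against 0.977 to 0.997 and 0.924 to 0.994 for the other 5.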

How the data were processed

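Small RNA of 20 libraries was sequenced after size selection and ligation of randomized adaptors, per the labels' protocols. The authors deposited raw counts, as whole numbers for each mature miRNA of each hairpin. The submitters' processing notes name cutadapt, STAR, bedtools and hg38. Tool versions, the annotation, the handling of reads with several matches and whether random adaptor bases were used are not stated there. Each table held 2813 values. Where a mature miRNA had several copies, the one with the highest total was kept. For miR-19b-3p this was the chromosome X copy, and the copy on chromosome 13 held 99.2% of its reads. For miR-92a-3p the X copy held 97.4% of the chromosome 13 copy's reads.

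Counts were fitted in R 4.3.3 with edgeR 4.0.16 (two-sided quasi-likelihood F test, TMM, filterByExpr minimum count 10, Benjamini-Hochberg over all miRNAs tested, threshold 0.05), on the groups of each comparison alone. All 10 members passed the filter in each fit. The permutation tests were two-sided and exact. Levels in CPM are on library totals. DESeq2 1.42.0, other scales, no filter, summed copies, a joint fit, left-out libraries and a replicate block were alternatives, and the scale on library totals and the test over both lines were added after seeing the data. On simulated counts the HCT116 fit on 441 miRNAs recovered 78.6% of changes of 1 and 100% of changes of 2 (log2), and the interaction fit on 483 miRNAs 37.3% and 90.8%. The simulation gave every miRNA the same dispersion, 0.05, and had no deviating replicate 3. These rates therefore need not hold for the real libraries. Replicate numbers come from the labels. Deviations from the group mean correlated between same-numbered libraries at r = 0.52 to 0.84 in HCT116 KO, 0.39 to 0.82 in HEK293E KO, 0.51 to 0.87 in the serum experiment and 0.25 to 0.54 between full-length and WT HCT116 libraries, so by the rule that every such r exceeds 0.1 the numbers were taken to pair them. For replicates numbered 2 another number correlated at least as well in HEK293E KO (0.43 against 0.39), serum (0.75 against 0.51) and full-length against WT (0.26 against 0.25). In HCT116 KO another number came close for replicates 1 (0.68 against 0.76) and 2 (0.51 against 0.52). The rule is lenient, as deviations from a mean of 3 libraries depend on each other. Whether replicates are separate cultures is not given, and the p-values cover no more than the spread among the libraries at hand, which may be technical. Intervals and limits for KO cells with GFP against untreated WT cells cover counting error only. Every member is named. The likeness rule took the 5 highest Pearson r. The members and lists were chosen with earlier results of these data known. Hairpins were folded with RNAfold 2.7.2, and the muscle, endothelial and HEK293E marker lists were read as a label check. Of the 3 muscle markers miR-206 was at 0 in all libraries. The muscle list summed to 32.4 to 66.6 CPM with p140 and 58.0 to 64.4 CPM with full-length DROSHA in HEK293E, and to at most 3.43 CPM in HCT116. In HCT116, miR-218-5p and miR-10b-5p summed to 340 to 1316 CPM.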

Additional observations from a re-analysis of the deposited data

Results flagged for a closer look

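The effect of p140 on miR-19a-3p differed between the lines. Its log2 fold change was -0.70 in HEK293E and -2.45 in HCT116, each against full-length DROSHA of the same line, and the interaction over 12 libraries was 1.68 (edgeR adjusted p = 0.0120). Scaled to the DROSHA-independent list it was 2.41 with an edgeR adjusted p of 0.329. The share of that list in the reads also differed, at 15.6 to 20.2% with p140 and 10.6 to 12.4% with full-length DROSHA in HEK293E, and 7.22 to 21.6% with p140 and 2.81 to 5.12% with full-length DROSHA in HCT116. Its part in the difference was not tested.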

How the results depend on the processing

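Once the replicate number entered as a block, the count of lower members was 9 for p140 in HCT116 (4 without it), 2 in HEK293E (1) and 8 in 0.1% FBS (4). The block moved the HEK293E values of miR-17-5p and miR-20a-5p to 0.0037 and 0.0148 (log2). Numbers did not pair full-length libraries across the lines (r of -0.41 to 0.15), where the block put miR-18a-3p at 0.63 (edgeR adjusted p = 0.063). Without replicates numbered 3 the counts were 9, 0 (1 at an unadjusted p under 0.05) and 8. In those fits 178 of 492, 40 of 409 and 162 of 586 of all miRNAs tested were lower. The HEK293E values of miR-17-5p and miR-19b-3p were then 0.0431 and 0.0053, and the serum values of miR-17-3p and miR-20a-5p 0.0868 and 0.0238. With RLE factors, and likewise with DESeq2, the HEK293E values of miR-17-5p, miR-20a-5p, miR-19b-3p and miR-92a-3p were 0.0862, 0.0949 (DESeq2 0.095), 0.057 and 0.0924. In the joint fit miR-17-5p, miR-20a-5p and miR-92a-3p were at 0.0111, 0.0129 and 0.048 there. With no filter the interaction had 2 calls (5 lower and 12 higher over all 2042 miRNAs), and miR-17-3p and miR-20a-5p were at 0.0002 and 0.0112 in serum.

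Scaled to the DROSHA-independent list, the median of all miRNAs moved to -1.63 in HCT116, -0.74 in HEK293E, -0.66 in serum and -0.40 between the lines. The member counts were then 8 in HEK293E (miR-92a-1-5p at -0.53), 7 in serum, 0 for the interaction (1 at an unadjusted p under 0.05) and 0 between the lines (0 at an unadjusted p under 0.05), all by edgeR. Over all miRNAs tested on that scale, 211 of 416 were lower in HEK293E and 241 of 577 in serum. The interaction had 0 calls over all 515, and between the lines 170 were lower and 108 higher of 517. Between the lines miR-17-5p was at -0.24, miR-17-3p at -0.40, miR-18a-5p at -0.19, miR-19a-3p at -0.14, miR-20a-5p at -0.18 and miR-19b-3p at -0.18. The median ratio of KO cells with GFP to WT over all 10 members, bounds included, was -8.305, against -2.51 in CPM. On library totals 8 members were lower in serum (43% of all miRNAs) and 10 higher in HEK293E (60.9% of all miRNAs). The cause of these shifts was not tested.

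With 1 library left out, counts were 3 to 9 (HCT116), 0 to 1 (HEK293E), 1 to 5 (serum), 0 to 3 (interaction), 2 to 8 (between lines) and 7 to 10 (full-length against WT). Over all miRNAs, of which these fits tested 410 to 662, lower calls ran from 108 to 197 in HCT116 and 67 to 93 in HEK293E. Lower calls ran from 80 to 138 in serum and 132 to 212 for full-length against WT. The interaction had 2 to 57 lower and 3 to 28 higher, and 146 to 197 were higher between the lines. Signs turned for these log2 fold changes. In HEK293E they ran from -0.19 to 0.11 for miR-17-5p, -0.61 to 0.15 for miR-17-3p, -0.41 to 0.13 for miR-18a-5p, -0.19 to 0.25 for miR-20a-5p, -0.16 to 0.0065 for miR-19b-3p, -0.38 to 0.18 for miR-19b-1-5p and -0.12 to 0.21 for miR-92a-3p. In serum they ran from -0.34 to 0.32 for miR-17-3p and -0.23 to 0.15 for miR-20a-5p. For the interaction they ran from -0.0854 to 0.61 for miR-17-5p, -0.19 to 0.84 for miR-17-3p and -0.16 to 0.67 for miR-20a-5p, and between the lines from -0.17 to 0.43 for miR-17-3p. Differences in hairpin share (percentage points) that turned were, in HEK293E, -0.266 to 1.58 for mir-17, -1.18 to 0.448 for mir-18a, -0.904 to 2.75 for mir-20a and -2.27 to 6.07 for mir-92a-1, and in serum -4.23 to 1.33 for mir-92a-1. Differences in arm share that turned were -0.348 to 0.0486 for miR-19b and -0.0314 to 0.0667 for miR-92a in HCT116, -1.76 to 0.0981 for miR-17, -3.24 to 0.117 for miR-18a and -0.310 to 0.267 for miR-19b in HEK293E, and -0.526 to 1.71 for miR-18a in serum. miR-19a-3p stayed lower with p140 in both lines in every fit, and passed in HCT116 in each. The depth of KO cells with GFP limits what can be read of the passenger arms.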
